A study of Oncorhynchus kisutch with 221 samples.

Results

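The 100 array probes described here had a lower ratio in the white muscle of coho salmon caught in their first spring at sea than in river smolts and in ocean fish of summer. They were chosen by their stage medians from 43636 probes. A probe needed a value in at least 50% of the fish of each of 6 life stages, which 18589 probes had, and an SD under 1 among fall fish, which left 17995. Its smolt median could not exceed its parr median, which left 9161 eligible probes. These were ranked by the dip, the smaller of the smolt and summer medians minus the spring median, and the 100 highest were kept. The parr, smolt, spring and summer values chose the members, so the dip itself is described without a test. No table used here pairs these probes with genes. They are called by their identifiers, which give a column and a row on the array, and the muscle label could not be checked against marker genes.

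Coho salmon (Oncorhynchus kisutch) hatch in rivers, live there as parr, and turn into smolts, a remodelling of body form, salt balance and metabolism that prepares a young fish for sea water. Entry into the sea brings a new salinity, new food and new predators. White muscle forms most of the trunk of a salmon, powers burst swimming largely through anaerobic glycolysis, and is a major site of protein deposition as the fish grows.

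RNA from the muscle of 221 single fish was hybridised on 2-colour arrays. Each fish was labelled with Alexa 555, and a pool of the muscle samples, labelled with Alexa 647, was the partner on every array. Values are read as log2 ratios of fish over pool, so 0 is the level of the pool and 1 unit is a factor of 2. The sources used here give neither log base nor direction, and this reading is the likely one: among the 372 probes with a variance of at least 1.6, the log2 of the mean linear ratio, which should lie near 0 for a pool of the same fish, had a median of -0.03, against 1.64 when the values were read as pool over fish and 0.72 when they were read as natural logs of fish over pool. Among the 8536 probes with a variance from 0.1 to 0.2 the median was 0.11, against -0.01 the other way, and among the 3256 less variable ones it was 0.13, against -0.08. With the sign turned, every dip below would be a peak. Pairs of arrays correlated at -0.43 or higher, with 105 of the 24310 pairs under -0.3.

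The stages, as the season labels give them, were as follows. The 9 Parr_River fish were hatchery fish of 2008 from the Chilliwack River. The 48 Smolt_River fish were 28 hatchery and 20 wild fish, 8 of them of 2008 and 40 of 2009. The 15 Ocean_Spring fish were all wild, of 2009, and from the southern Strait of Georgia. The 64 Ocean_Summer fish were 26 hatchery and 38 wild fish, the 76 Ocean_Fall fish 30 hatchery and 46 wild fish, and the 9 Ocean_Winter fish 5 hatchery and 4 wild fish. Spring fish were about as long as smolts, with a mean fork length of 11.3 cm ± 1.03 (SD, n = 15) in spring fish and 11.3 cm ± 1.38 (SD, n = 48) in smolts. Spring fish thus differed from the parr in year and origin as well as stage, and no slide held both smolts and spring fish, so slide and stage cannot be told apart in that contrast.

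At sea entry the members moved in 1 direction by construction, and the size of the move varied among them. Over the 100 members, the median of the stage medians was 0.20 for parr and -0.15 for smolts in the rivers, then at sea -0.76 for spring fish, -0.29 for summer, -0.26 for fall and -0.21 for winter fish. Over the 9161 eligible probes the same values were 0.27, 0.01, 0.06, 0.04, -0.02 and 0.04. Spring minus smolt medians ran from -1.23 to -0.38 among members, with a median of -0.55, where the eligible probes had a median of 0.05. Spring minus summer medians ran from -0.78 to -0.38, with a median of -0.45. The labels give the tissue only as white muscle, so fewer cells of a type and less RNA per cell cannot be told apart.

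The stages that the ranking left out gave the rest of the profile. The spring median was below the fall median in 98 of 100 members, against 38.1% of eligible probes, and below the winter median in 95, against 46.0%. It was the lowest of all 6 stage medians in 94 members, against 19.1% of eligible probes. These counts share the spring fish with the rule and are no separate evidence of the dip. The 2 members whose spring median was not below the fall median were C020R098, at -0.77 in spring and -0.81 in fall, and C034R151, at -0.33 in spring and -0.89 in fall. The parr median was the highest of all stages in 77 members, against 62.7% of eligible probes; the rule itself placed it at or above the smolt median. Smolt minus parr medians had a median of -0.31 among members and -0.24 among eligible probes.

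The summer level did not reach the smolt level in most members. The summer median was below the smolt median in 74 of 100 members, against 44.3% of eligible probes, and summer minus smolt medians had a median of -0.10. From summer on the members had no common direction: the fall median was below the summer median in 42 members, against 62.5% of eligible probes, and fall minus summer medians ran from -1.09 to 0.78. All 100 members had a spring median below 0, the level of the pool, and 83 had a smolt median below 0 as well, against 42.2% and 47.0% of eligible probes. The counts in this paragraph use smolt, spring or summer medians, which chose the members, so they are a description.

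C106R047 had the deepest dip, at 0.77. Its ratio was between -1.86 and 1.24 with a median of -1.02 in spring fish, and between -2.22 and 2.82 with a median of -0.07 in smolts. In summer fish it was between -2.85 and 2.41 with a median of -0.25. The ranges of the 3 stages overlapped widely, and of the spring fish only replicates 2 and 11 were above 0.

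C146R002, with the second largest dip of 0.69, had a value in 11 of the 15 spring fish. The ratio was between -2.66 and 0.62 with a median of -1.51 in spring fish, and between -1.88 and 1.90 with a median of -0.48 in smolts. In summer it was between -2.66 and 1.18 with a median of -0.83. Replicate 5 was the only measured spring fish above 0.

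C259R038 had a dip of 0.66, with a median of -0.78 in spring fish (range -1.40 to 0.80), -0.03 in smolts and -0.12 in summer fish. In fall its median was 0.26, above the smolt level. C188R001 had a dip of 0.64, with a median of -0.84 in spring fish (range -1.59 to 0.60), -0.08 in smolts and -0.21 in summer fish. Its fall median was -0.40, and its winter median 0.20. C121R162 had a dip of 0.61, with a median of -1.35 in spring fish (range -3.15 to 0.61), -0.16 in smolts and -0.75 in summer fish. It stayed at -1.05 in fall and -0.88 in winter. The 5 leading members thus had like dips, the value that ranked them, and unlike levels afterwards. Their spring minus smolt medians were -0.94, -1.04, -0.75, -0.76 and -1.20 in rank order.

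The limit of the set fell in a dense part of the ranking. The last members were C230R106 and C089R092, with dips of 0.3803 and 0.3793, and the first probes outside were C007R087 and C208R164, with dips of 0.3785 and 0.3776. The membership of probes near the limit therefore rested on differences in the third decimal. When the ranking was repeated without 1 spring fish at a time, 68 to 83 of the 100 members were kept, and with stage means in place of medians 44 were kept.

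Not every spring fish showed the pattern. The mean over the members, taken in each fish, averaged 0.21 ± 0.26 over the 9 parr, -0.19 ± 0.21 over the 48 smolts and -0.66 ± 0.30 over the 15 spring fish, each with its SD. Later at sea it was -0.33 ± 0.24 (SD, n = 64) in summer fish, -0.29 ± 0.18 (SD, n = 76) in fall fish and -0.24 ± 0.35 (SD, n = 9) in winter fish. In 14 of the 15 spring fish it lay between -1.18 and -0.52, and in smolts between -0.74 and 0.25. In spring replicate 2 it was 0.21, and only 34 of the 91 members measured in that fish were below 0. Without this fish the spring mean was -0.72 ± 0.18 (SD, n = 14).

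Spring replicate 2 shared slide 27 with replicates 3 and 4, whose means were -0.73 and -0.74. Its fork length of 11.0 cm was that of replicate 3. In the 100 probes that peak in spring by the mirror-image ranking, its mean was -0.28, while the other 14 spring fish lay between -0.13 and 0.67 with a median of 0.51. When the ranking was repeated without it, 76 of the 100 members were kept, and the highest dip was 0.90.

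Above the highest of the other 14 spring fish lay all 9 parr, 45 of 48 smolts, 49 of 64 summer fish, 69 of 76 fall fish and 8 of 9 winter fish. The smolt, spring and summer values are those that chose the members, so this overlap is a description. The lowest fish of the other stages were summer replicate 34, at -1.04, and winter replicate 1, at -0.99. Below the spring median of -0.71 lay 1 of 48 smolts, 2 of 64 summer fish, 2 of 76 fall fish and 1 of 9 winter fish.

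Among spring fish, the regions overlapped. The 6 fish from outside the region labelled ECVI had a mean of -0.81 ± 0.24 (SD, n = 6), and the 8 ECVI fish without replicate 2 had -0.65 ± 0.10 (SD, n = 8). They lay on 3 and 4 separate slides, so region and slide cannot be told apart. Spring replicate 13, the shortest spring fish at 9.5 cm, was from outside ECVI and had the lowest mean, -1.18. Members per fish below their smolt median ranged from 26 of 91 in replicate 2 to 96 of 99 in replicate 13.

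The number of members measured also differed in spring. Of the cells of the members, 8.73% were empty in spring fish and 4.44% in smolts. Over all eligible probes 4.67% were empty in spring fish and 3.87% in smolts. The spring fish of slides 27, 28 and 29 had values for 80 to 91 members and those of slides 7, 18, 19 and 43 for 97 to 100. The means of the 2 sets of fish overlapped. The spread of values within an array, given as the interquartile range, averaged 0.69 ± 0.07 (SD, n = 15) in spring fish and 0.59 ± 0.07 (SD, n = 48) in smolts. After quantile normalization, which gives every array the same spread, the ranking kept 69 of the members and the dips of its 100 probes ran from 0.32 to 0.60. The part of empty cells and of spread in the dip was not tested further.

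Within slides, spring could be set beside fall, winter and summer but not beside smolts. Against fall fish of the same slide, the spring fish were lower in 80 of 98 members on slide 7, in 87 of 99 on slide 19, in 78 of 100 on slide 43 and in 54 of 89 on slide 27. The median difference was -0.67, -0.80, -0.59 and -0.18 in the same order. Leaving replicate 2 out of slide 27 moved the last value to -0.36. Between 39.9% and 48.6% of eligible probes were lower in spring on these slides. The spring fish here, and in the winter contrasts below, also set the spring medians that chose the members. These counts are thus no separate evidence of the dip.

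Against winter fish, spring replicate 13 was lower in 90 of 99 members on slide 19, with a median of -1.11, and spring replicate 9 in 86 of 100 on slide 43, with a median of -0.80. Of the eligible probes, 47.3% and 53.5% were lower in the same order. Against summer fish, the contrast that chose the members, spring replicate 1 was lower in 51 of 81 members on slide 29, with a median of -0.22. There 49.3% of eligible probes were lower, and the summer fish of that slide were all west coast fish. On slide 43, spring replicate 9 was lower than summer replicate 32 in 44 of 99 members, against 44.7% of eligible probes. The median difference over the members was 0.08. The members' mean was -0.77 in that spring fish and -0.74 in that summer fish, a west coast fish with the second lowest mean of the summer group. Each of these comparisons rests on 1 to 3 fish a side and none was tested.

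With wild fish of 2009 alone, spring medians over 15 fish were below the medians of 12 smolts in 98 of 100 members, with a median difference of -0.60. They were below the medians of 11 southern Strait summer fish in 99 members, with a median difference of -0.48. Among eligible probes 44.4% and 42.4% were lower in spring. These fish are subsets of those that chose the members, so the counts are a description of matched fish and no check of the dip. The ranking was also repeated with smolt, spring and summer medians from wild fish of 2009 of all catch areas. The rest of the rule stayed on all fish, and 58 of the 100 members were kept.

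Of the 60 control rows of the array, 12 had values in enough fish of every stage. Their dips ran from -0.35 to 0.25 with a median of -0.18. Over the eligible probes the dip had a median of -0.10 and quartiles of -0.23 and 0.03. The 3 above 0 were DarkCorner at 0.25, 3xSLv1 at 0.16 and GE_BrightCorner at 0.10. All E1A and DCP rows had dips below 0, and their spring minus smolt medians ran from 0.08 to 0.35. None of the 12 reached the lowest dip of the members, 0.38. Whether the dip of the members is related to these control rows was not tested.

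The members were not one tightly coupled group. Over all fish, with stage means removed, the correlation between 2 members had a median of 0.11 over 4950 pairs, and 74.2% of pairs were positive. Among the spring fish alone the median was 0.23, and 0.10 without replicate 2. These correlations are across probes measured on the same arrays, so they share array effects, and they are given as a description. Members were also more variable than eligible probes: the median SD among smolts was 0.55 for members and 0.40 for eligible probes, and among fall fish 0.58 and 0.41. The dip was not scaled by the spread of a probe, so the ranking itself favoured variable probes.

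Inside this loose set, small groups of probes tracked each other closely. In 15 pairs, made up of 21 members, the correlation with stage means removed was above 0.7. C121R162, C096R096 and C264R125, ranked 5, 6 and 9, correlated at 0.90 to 0.91 over 221 fish. They had the 3 largest steps from smolts to spring, at -1.20, -1.23 and -1.21. Their medians were -1.35, -1.51 and -1.49 in spring, -0.16, -0.28 and -0.28 in smolts, and they stayed low in fall at -1.05, -0.84 and -1.08.

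C259R038, C206R110 and C162R081, ranked 3, 8 and 22, formed a second trio, with correlations of 0.81 to 0.90 over 219 to 220 fish. Their medians were -0.78, -0.75 and -0.48 in spring and -0.03, -0.18 and 0.01 in smolts. In fall they were at 0.26, 0.21 and 0.37, above their smolt medians, unlike the first trio. The pairs C033R107 with C149R108 and C145R066 with C131R087 correlated at 0.89 and 0.86. Whether probes of a close group belong to the same transcript cannot be told from the files.

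Closely correlated members were not neighbours on the array. The probes of the first trio lay 25 to 168 columns apart. With the array's 266 columns cut into 4 equal blocks, 29, 26, 27 and 18 members lay in the blocks, each of which held 24.2% to 26.5% of eligible probes. Only 2 members were next to another member.

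The further comparisons used contrasts that had not chosen the members, but largely in fish whose values had entered the rule. Smolt, spring and summer medians set the ranking, and the SD limit left out probes that varied most among fall fish. The comparisons are thus not free of the choice of members. All were fitted with limma over all probes with enough values, and a probe was called at a Benjamini-Hochberg adjusted p under 0.05. The question of each was whether the members, which shared a step at sea entry, also differed with season, origin, river, sex, place, year or size.

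Between winter and fall, 7 of 100 members passed, 6 of them higher in winter, when 10.8% of 18589 probes passed, 5.84% higher and 4.97% lower. The median difference, winter minus fall, was 0.03 over the members and -0.02 over all probes. C107R130 ranged from 0.01 to 1.19 with a mean of 0.52 ± 0.35 (SD, n = 9) in winter fish, and from -1.95 to 1.23 with a mean of -0.71 ± 0.60 (SD, n = 76) in fall fish. It was 1.22 higher in winter (SE 0.28, limma adjusted p = 0.0023). It also had the largest drop from parr to smolts of all members, with medians of 1.69 in parr and -0.60 in smolts, and a winter median of 0.48 between them.

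C247R023 averaged 0.25 ± 0.69 (SD, n = 6) in winter fish and -0.64 ± 0.65 (SD, n = 65) in fall fish, a difference of 0.88 (SE 0.28, limma adjusted p = 0.028). C157R100 was lower in winter, with -0.72 ± 0.65 (SD, n = 6) in winter fish and 0.22 ± 0.50 (SD, n = 71) in fall fish, a difference of -0.94 (SE 0.21, limma adjusted p = 0.0023). Winter and fall values overlapped in all 3 probes. With slide as a fixed block, C157R100 and C247R023 lost their calls. Their differences were -0.81 (limma adjusted p = 0.14) and 1.18 (limma adjusted p = 0.069). C107R130 kept its call there, at 1.26 (limma adjusted p = 0.036). The call of C247R023 was lost without winter replicate 2, 5 or 7, at adjusted p of 0.16, 0.079 and 0.098, and the count of members called was 3, 4 and 3 without them. Most winter fish but only 10 of 76 fall fish were from the west coast, so place moved with a part of this contrast. Among the 16 west coast fish of 2009 alone, limma called 0 of 98 members and 5 of 20268 probes. There 14 members and 2919 probes reached an unadjusted p under 0.05. The difference in these fish was 0.80 for C107R130 (limma adjusted p = 0.15) and 0.25 for C247R023 (limma adjusted p = 0.67).

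Before the sea, hatchery smolts of the Capilano River had lower values than wild smolts in most members without passing probe by probe. The difference, hatchery minus wild, had a median of -0.23 over the members and 0.02 over all probes, and was positive in 30 of 100 members and in 52.4% of all probes. The members' mean per fish was -0.21 ± 0.18 (SD, n = 9) in hatchery smolts and -0.01 ± 0.10 (SD, n = 6) in wild smolts. Hatchery means differed by slide: 0.01, 0.01 and 0.03 on slides 32 and 44, and -0.48 to -0.23 on slide 50. The hatchery smolts on slides 51 and 42 had -0.28 and -0.26. In limma 1 of 100 members passed, as did 0.569% of 22680 probes, 0.26% higher and 0.309% lower in hatchery smolts. The hatchery fish were longer, at 11.4 cm ± 0.62 (SD, n = 9) against 9.75 cm ± 1.25 (SD, n = 6) in wild fish. The parts of length and slide in the members' mean were not tested.

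The member that passed was higher in hatchery smolts. C021R133 ranged from 0.44 to 1.23 in the 9 hatchery smolts and from -1.18 to -0.52 in the 6 wild smolts, with no overlap. It was 1.47 higher in hatchery smolts (SE 0.15, limma adjusted p = 0.00056). Only slide 42 held Capilano smolts of both origins, 1 hatchery and 1 wild fish. With slide as a fixed block the difference was 1.34, and C021R133 was no longer called. That estimate rests on this pair alone, so it is no check of the call. On the other slides, origin and slide cannot be told apart. With trend and robust 4 members passed, 3 of them lower.

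Among hatchery smolts of 2009, the 3 rivers differed in 1 of 91 members by limma's moderated F-test, when 0.794% of 19389 probes passed. C111R088 averaged 0.21 ± 0.19 (SD, n = 9) in Capilano fish, -0.01 ± 0.22 (SD, n = 10) in Chehalis fish and -0.49 ± 0.44 (SD, n = 8) in Puntledge fish (limma adjusted p = 0.038). With slide as a random block its adjusted p was 0.41. The mean over the members was lowest in Puntledge fish too, at -0.35 ± 0.21 (SD, n = 9), against -0.21 ± 0.18 (SD, n = 9) in Capilano fish and -0.15 ± 0.24 (SD, n = 10) in Chehalis fish. All 3 means were above the spring mean, but smolt and spring values chose the members, so this is a description.

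No member passed for origin at sea or for sex. For hatchery against wild fish at sea in the summer and fall of 2009, limma called 0 of 100 members and 0.0% of 21722 probes, and 5 members and 1969 probes had an unadjusted p under 0.05. The smallest p among members was that of C247R023, which averaged -0.73 ± 0.62 (SD, n = 44) in hatchery fish and -0.41 ± 0.63 (SD, n = 63) in wild fish (limma adjusted p = 0.40). For origin among fall fish alone, limma called 0 of 100 members but 104 of 21641 probes, with 16 members and 3354 probes at an unadjusted p under 0.05. Among summer fish alone it called 0 of 100 members and 0 of 21858 probes, with 6 members and 1141 probes at an unadjusted p under 0.05. Females and males were compared over the 152 sexed fish, which were 15 river smolts and the summer, fall and winter fish of known sex. Limma called 0 of 100 members and 0.00958% of 20876 probes, and 7 members and 1120 probes had an unadjusted p under 0.05. The smallest p was that of C206R110, which averaged -0.17 ± 0.75 over 69 females and 0.11 ± 0.72 over 82 males, each with its SD (limma adjusted p = 0.82).

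For the place of catch, the members' differences had another direction in fall than in summer. Over both seasons of 2009, west coast fish and Strait of Georgia fish differed in 0 of 100 members and in 0.0% of 21589 probes in limma, and 14 members and 2025 probes had an unadjusted p under 0.05. Among fall fish alone, west coast minus Strait differences had a median of 0.09 over the members and -0.01 over all probes. They were positive in 60 members and in 47.6% of all probes. Among summer fish alone the medians were -0.13 and 0.004, with 29 members and 50.9% of all probes positive. The interaction of place and season, fitted after these values were seen, was positive in 71 of 100 members and in 47.4% of all probes, with medians of 0.25 and -0.02. It passed in 2 members, against 0.436% of 21103 probes (0.232% positive and 0.204% negative), and in 0 members with slide as a random block. The summer medians that chose the members came mostly from Strait fish, with 8 west coast fish among the 64 summer fish. The counts for summer and for the interaction are therefore a description of the members.

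C069R129 passed the interaction with an estimate of 1.06 (SE 0.26, limma adjusted p = 0.035). In fall it averaged 0.57 ± 0.49 (SD, n = 10) in west coast fish and 0.02 ± 0.47 (SD, n = 58) in Strait fish. In summer it averaged -0.47 ± 0.43 (SD, n = 8) in west coast fish and 0.04 ± 0.58 (SD, n = 49) in Strait fish. West coast fish were above Strait fish on average in fall and below them in summer, with overlapping ranges in both seasons. The west coast fish were the longest in fall, at 30.1 cm ± 2.86 (SD, n = 10), against 24.8 cm and 24.1 cm in the 2 Strait areas, and lay on 6 slides.

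Between years, in Strait fish of summer and fall, 4 of 100 members passed, 3 of them higher in 2008, when 0.595% of 21194 probes passed, 0.316% higher and 0.278% lower. C031R119 averaged 0.46 ± 0.55 (SD, n = 15) in 2008 fish and -0.55 ± 0.82 (SD, n = 106) in 2009 fish, 1.00 higher in 2008 (SE 0.21, limma adjusted p = 0.0041). C146R002, the member ranked second, averaged 0.18 ± 0.87 (SD, n = 14) in 2008 fish and -0.79 ± 0.89 (SD, n = 102) in 2009 fish (difference 0.96, SE 0.24, limma adjusted p = 0.030). C028R103 was lower in 2008, with -1.03 ± 0.88 (SD, n = 15) in 2008 fish and -0.26 ± 0.71 (SD, n = 107) in 2009 fish (difference -0.77, SE 0.20, limma adjusted p = 0.038). With slide as a fixed block the difference was 1.56 for C146R002, while C031R119 and C028R103 had adjusted p of 0.051 and 0.31. All spring fish were of 2009, so for these members year moved with a part of the stage contrasts.

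Fork length went with few members. Within summer and fall, 5 of 100 members had a slope that passed in limma, 3 of them positive, when 2.54% of 21797 probes passed, 1.24% with a positive and 1.3% with a negative slope. C156R003 gained 0.107 per cm (SE 0.020, limma adjusted p = 0.0016), and 0.104 per cm with year, origin and catch area as covariates. The same probe was 0.69 higher in west coast than in Strait fish without passing (limma adjusted p = 0.10), and 1.10 higher among fall fish alone (limma adjusted p = 0.0040). C064R041 lost 0.082 per cm, a slope of -0.082 (SE 0.019, limma adjusted p = 0.012), and C034R151 had a slope of -0.084 (SE 0.024, limma adjusted p = 0.036). C228R067 rose with length by 0.069 per cm (SE 0.021) at a limma adjusted p of 0.047, and its slope was -0.026 among summer fish alone. With those covariates C064R041 had an adjusted p of 0.041, C034R151 of 0.15 and C228R067 of 0.19. Among summer fish alone limma called 0 of 100 members and 0 of 22153 probes, with 16 members and 1931 probes at an unadjusted p under 0.05.

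Within smolts and within spring fish no slope passed. Limma called 0 of 88 members and 0.0% of 18880 probes among smolts, with 3 members and 586 probes at an unadjusted p under 0.05. Among spring fish it called 0 of 100 members and 0.0% of 21838 probes, with 6 members and 838 probes at an unadjusted p under 0.05. The slope in spring fish was positive in 72 members, against 52.4% of all probes, with a median of 0.064 per cm over the members and 0.007 over all probes. With slide as a fixed block it was positive in 52 members, and after quantile normalization in 55. The smallest p was that of C155R084 among smolts and of C035R061 among spring fish (limma adjusted p = 1.00 for both).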

How the data were processed

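White muscle RNA of 221 fish was measured on 2-colour arrays on 61 slides, with Alexa 555 for fish and Alexa 647 for the pool, per the labels. The deposited table holds 1 log ratio per probe and fish, read here as log2 and already normalized by the authors: array medians lay between -0.01 and 0.03. The sources used here do not give its other processing, log base or direction. Of the cells, 47.3% were empty. The deposited series table has the same values except 3168 cells that are empty for 1 fish. Unused value columns numbered 0.

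Fish were grouped by the season label, not by titles, and replicates are separate fish numbered in accession order. The 60 control rows were left out. Tests used R 4.3.3 and limma 3.58.1 (lmFit, eBayes, Benjamini-Hochberg, 0.05) over all probes with values for 50% or more of each group's fish, and were tested on simulated data. Medians and counts used Python 3.11.15 and pandas 2.3.3. Stage was a covariate where a comparison spanned stages, and winter minus fall came from 1 fit over all stages. Named are the 5 highest and 2 last members, the 2 probes outside, and per comparison up to 2 members each way past the threshold or the 1 with the smallest p; other members were named after their values were seen. Members, lists and tests were chosen with earlier results of these data known. Gene lists and markers were not used, since 0 probes matched the gene table. The number of arrays limits the precision.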

Additional observations from a re-analysis of the deposited data

Results flagged for a closer look

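Single fish stood far from the rest of a small group in 6 of 50 sets examined, where chance flags about 1 in 20. In parr, C107R130 was 0.26 in replicate 9 and between 1.54 and 2.19 in the other fish, C028R103 was 1.95 in replicate 4 and between 0.02 and 0.97 in the others, and C155R084 was 2.67 in replicate 1 and between -2.15 and -0.33 in the others. In winter fish, C121R162 was -3.53 in replicate 1 and between -1.72 and 0.08 in the others, and C155R084 was 0.65 in replicate 5 and between -2.62 and -1.88 in the other measured fish. Replicate 1 also had the lowest mean over the members of all winter fish, -0.99. Among wild smolts of the Salmon River, the mean over the members was -0.56 in smolt replicate 14 and between -0.34 and -0.21 in the others. Without parr replicate 9, 94 of the 100 members were kept, an alternative chosen after seeing the data.

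The effect of west coast against Strait of Georgia catch differed between fall and summer in 2 members by limma's interaction term, against 92 of 21103 probes (0.436%). With slide as a random block 0 members and 8 probes passed. For C155R084 it was -2.38 (limma adjusted p = 0.031): the mean was -2.35 ± 0.65 (SD, n = 9) in west coast and -2.29 ± 0.63 (SD, n = 48) in Strait fish of fall, and 0.34 ± 1.87 (SD, n = 5) in west coast and -1.97 ± 1.13 (SD, n = 46) in Strait fish of summer. For C069R129 it was 1.06 (limma adjusted p = 0.035). Summer values, mostly of Strait fish, had helped to choose the members.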

How the results depend on the processing

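Of the members, 91 were kept with arrays centred on their medians, 75 with the filter at 80%, 86 without the fall SD limit and 99 with the series table. Only 44 were kept with stage means, and 58 with smolt, spring and summer medians from wild fish of 2009. Leaving out each spring fish kept 68 to 83. Between winter and fall 7 members passed, against 3 when slide was a fixed block, 0 in west coast fish of 2009 and 3 to 8 without each winter fish: 3 without replicate 2 or 7 and 4 without replicate 5. All probes called fell to 482, 551, 725 and 1036 without winter replicates 5, 1, 7 and 2, against 2010 with all fish. Counts of members moved to 4 for Capilano origin with trend and robust (427 of all probes), to 0 for rivers with slide as a random block (0 of all), to 2 for place among fall fish alone (247 of all) and to 2 for year with slide as a random block (72 of all). For the length slope they moved from 5 (553 of all) to 1 with slide as a fixed block (134), 3 without the filter (348), 0 in summer (0) and 2 in fall (148). The place and season interaction moved from 2 to 0 when slide was a random block, and to 1 with the filter at 80%. The slope of C228R067 was -0.026 in summer fish alone, against 0.069. The cause of these moves was not tested, except that subsets and filters change the fish or probes fitted. Of the other values for named probes, 141 kept direction and side, 27 lost the call and 1 gained it. The river comparison could not be fitted with slide as a fixed block. No paired analysis was possible because replicate numbers follow accession order and pair no fish; slides shared by fish were fitted as blocks.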

Other observations

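The mirror-image ranking, for probes that peak in spring, gave steps of like size: among 8834 eligible probes the 100 highest ran from 0.39 to 0.95, with a median of 0.45, where the members had 0.38 to 0.77 and 0.43. Winter replicates 4, 6 and 8, all on slide 8, had values for 77 to 82 members and means between -0.05 and 0.02, while replicates 1 and 5 on slide 20 had means of -0.99 and -0.43. Parr replicates 8 and 9 had means of -0.30 and -0.09, against 0.17 to 0.43 in the other 7 parr. Of the 100 members, C033R107 and C137R109 were below their smolt median in all 15 spring fish.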
